A study of Homo sapiens with 6 samples.

Results

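The AP-1 and MYC family factors described here are 10 genes, 4 of the FOS family (FOS, FOSB, FOSL1 and FOSL2), 3 of the JUN family (JUN, JUNB and JUND) and 3 of the MYC family (MYC, MYCN and MYCL). They were taken by name: each is the row of the count table whose Ensembl identifier carries that symbol in GENCODE 29, and all 10 were found among 58096 gene rows. RNA was sequenced from SH-SY5Y cells, an established human neuroblastoma line that the submitters label as neuronal progenitors, after 48 h with 2 ul of an adenovirus. The control group, GFP, received a virus for green fluorescent protein, and the other group, PGC1A, a virus for PGC-1a, a coactivator of transcription with a textbook role in making mitochondria. Each group has 3 libraries, both groups carry adenovirus, and the labels give neither the virus titres nor the promoter of the inserts. The labels do not state whether the libraries within a group stem from separate cultures. The p-values therefore reflect the spread among these libraries alone, and that spread may be technical.

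AP-1 is a dimer of basic leucine zipper proteins. JUN proteins can pair with each other or with FOS proteins, while FOS proteins need a JUN partner to bind DNA, and the make-up of the dimer sets how strongly a target gene is driven. Several FOS and JUN genes are immediate early genes, switched on within minutes of growth factor, stress or calcium signals through MAP kinases, SRF and CREB. MYC proteins are helix-loop-helix zipper factors that bind the E-box letters CACGTG together with MAX and drive growth and ribosome production. MYCN is the member amplified in many aggressive neuroblastomas, and SH-SY5Y is known as a line without that amplification.

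The delivered gene matched the labels: PPARGC1A, which encodes PGC-1a, had 98 to 135 counts in the GFP libraries and 103737 to 109350 in the PGC1A libraries. Libraries held 24988743 to 31762496 counts assigned to genes. Of the defining noradrenergic neuroblastoma genes, DBH, GATA2 and 7 others were expressed in both groups, while TH, tyrosine hydroxylase, had 0 counts in every GFP library and 21 over the PGC1A libraries. Of these 9 tested identity genes, 8 were lower and 1 higher in PGC1A, where 42.1% of all genes tested were lower and 40.9% higher. The higher gene was CHGA, from 129 to 384 CPM (CPM being counts scaled to library size with TMM factors). On the log2 scale CHGA rose by 1.57, while DBH was at −3.26 and GATA2 at −1.97. The summed level of the 9 genes was 1167 to 1177 CPM in GFP and 894 to 908 CPM in PGC1A. That sum includes the rise of CHGA, so it understates the fall of the other 8. Of 12 markers of the substrate-adherent, mesenchymal-type state that such lines also hold, 11 were lower and 0 higher, 1 of them tested through its GFP libraries alone (PRRX2), with sums of 3605 to 3659 CPM in GFP and 1768 to 1798 CPM in PGC1A, and none was at 0. Their part in the results on AP-1 and MYC genes was not tested, and in bulk RNA fewer cells of a type and less RNA per cell cannot be told apart.

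All 10 genes differed between the groups, 3 higher in PGC1A (JUNB, FOS and FOSL2) and 7 lower (JUN, JUND, FOSB, FOSL1, MYC, MYCN and MYCL). That count has to be read against a background in which 83.0% of the 19343 genes tested passed an adjusted p of 0.05, 40.9% higher and 42.1% lower (edgeR's quasi-likelihood test, Benjamini-Hochberg adjustment). A call in either direction is thus the common state of a gene in this comparison. The split depends on scaling: 49.3% of these calls were higher with TMM factors, 43.3% with upper-quartile factors and 34.97% with total counts, which moved the median of all genes by −0.13 and −0.33 on the log2 scale. Changes of at least 2-fold were less common over all genes, 19.0% higher and 16.8% lower, and among the 10 genes 1 was higher by that much (JUNB) and 6 were lower (JUN, JUND, FOSB, MYC, MYCN and MYCL). Tested against a 1.5-fold change with glmTreat, 24.6% of all genes were higher and 23.1% lower, and the same 7 of the 10 passed. The groups did not overlap for any of the 10, as for 83.6% of all genes tested. FOSB, MYCN and MYCL passed the filter on low counts through their GFP libraries alone. With GFP levels as low as their PGC1A levels these 3 would not have been tested, so the counts over the 10 genes are a description. The median log2 fold change was −1.22 over the 10 genes and −0.03 over all genes tested.

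**Figure D1:**
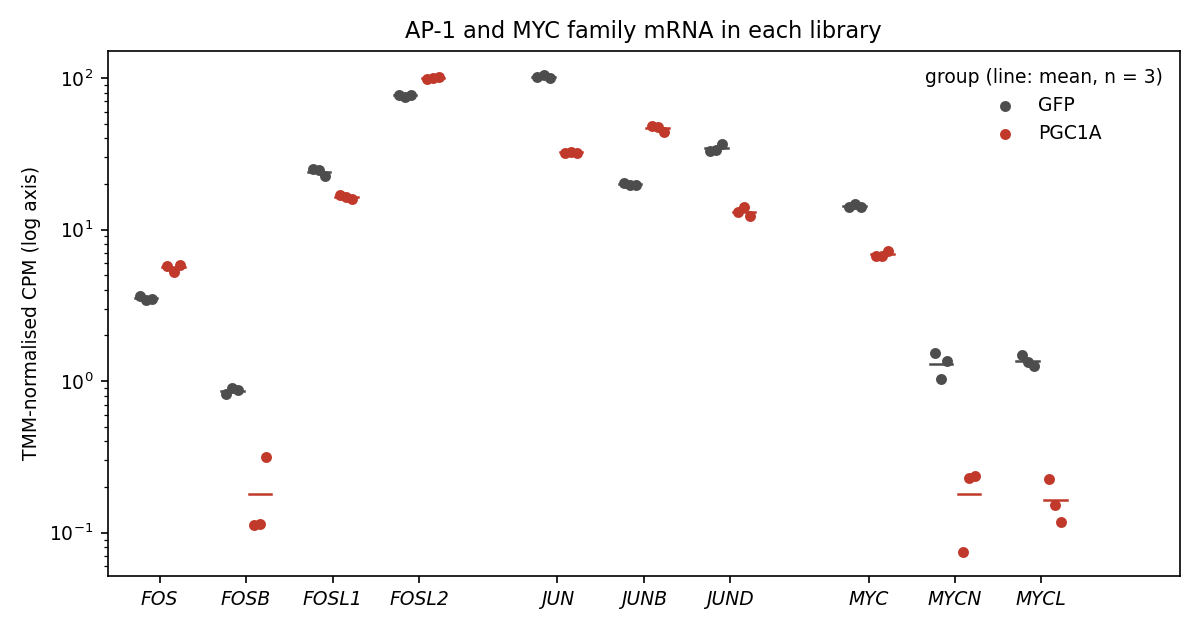
Level of each gene in every library, as TMM-normalised CPM on a log axis; grey points are the 3 GFP libraries, red points the 3 PGC1A libraries, and lines the group means. JUNB, FOS and FOSL2 lie higher in PGC1A and the other 7 lower, and the groups do not overlap for any gene.

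The JUN family changed its leading member. JUN, a strong activator and the founding member, fell and was overtaken by JUNB, which rose. JUND, the broadly expressed member linked to quiescence and antioxidant defence, fell as well. JUN (chromosome 1, 58780788 to 58784327, minus strand, GRCh38) stood at 100.9, 105 and 99.7 CPM in the GFP libraries and at 32.2, 32.4 and 32.1 CPM in the PGC1A libraries. The 3 PGC1A values lie close together and far below every GFP value. The change was −1.66 on the log2 scale (SE 0.04, adjusted p = 3.76e-39), a level 3.16-fold lower.

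JUNB (chromosome 19, 12791496 to 12793315, plus strand) is a weaker activator that can oppose JUN at shared targets. It stood at 20.3, 19.8 and 19.7 CPM in GFP and at 48.5, 47.7 and 43.8 CPM in PGC1A, so every PGC1A library lay far above the GFP range. The log2 fold change was 1.23 (SE 0.05, adjusted p = 6.97e-29). The gene HOOK2 on the opposite strand covers 14.2% of the exon bases of JUNB and was itself higher in PGC1A (40.2 to 40.9 CPM against 67.2 to 68.6 CPM). The libraries kept strand, per the labels, but how strand was set when reads were counted is not given in the sources used here, so reads in that stretch cannot be assigned to one gene or the other with certainty.

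JUND (chromosome 19, 18279760 to 18281622, minus strand) stood at 33.1, 33.7 and 36.6 CPM in GFP and at 13.01, 14.2 and 12.3 CPM in PGC1A. All 3 PGC1A libraries were below all 3 GFP libraries, and the log2 fold change was −1.39 (SE 0.06, adjusted p = 1.42e-27). With TMM scaling JUN and JUND therefore both fell by more than 2-fold while their paralog rose by more than 2-fold. With total counts the rise of JUNB was 0.90 on the log2 scale, short of 2-fold, and JUN and JUND were at −1.99 and −1.72.

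Because these genes differ in length, levels were compared between them only as counts per exon base, which within a library do not depend on the scaling between libraries. On that scale JUN held 49.5% ± 1.33 of the JUN family level in GFP, JUND 31.8% ± 1.51 and JUNB 18.8% ± 0.533 (SD, n = 3). In PGC1A the order was JUNB at 61.3% ± 0.934, JUN at 21.8% ± 0.892 and JUND at 16.9% ± 0.721. JUNB was thus the lowest member in every GFP library and the highest in every PGC1A library. The ratio of JUNB to JUN per exon base was 0.391, 0.365 and 0.384 in GFP and 2.93, 2.86 and 2.65 in PGC1A. The ratio of JUND to JUN moved much less, from 0.643 ± 0.0476 to 0.774 ± 0.0527. The summed JUN family level went from 58.2 ± 0.702 to 41.8 ± 1.82 CPM per kilobase of exon, 0.718 of the GFP level, or 0.571 when libraries were scaled to total counts.

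**Figure D2:**
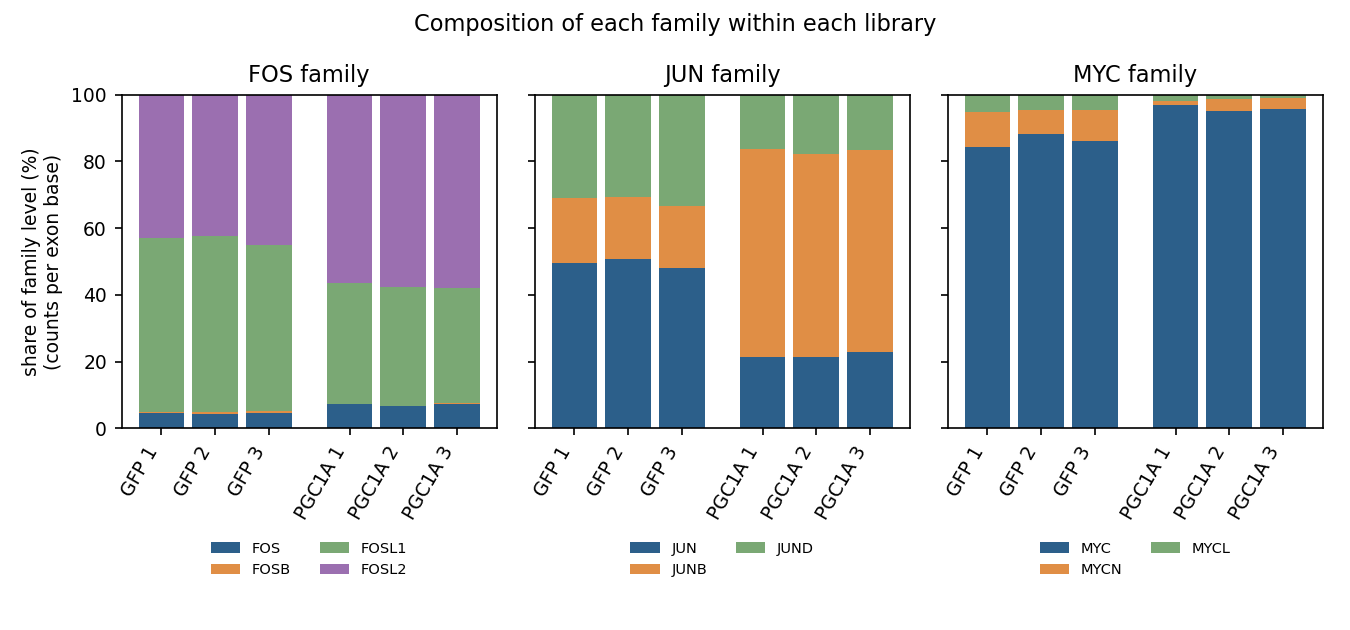
Share of each gene in the summed level of its family, in percent of counts per exon base, for each of the 6 libraries (bars 1 to 3 of a panel GFP, the others PGC1A). JUNB goes from 18.8% to 61.3% of the JUN family, FOSL2 from 43.4% to 57.3% of the FOS family and MYC from 86.1% to 95.8% of the MYC family.

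The promoters of these genes are shown because CREB and AP-1 sites in them are textbook inputs to the family. RefSeq promoters on GRCh38.p14 (250 bases before to 50 after the start) were matched for 8 of the 10 genes, and FOSL1 and MYC were not among them. The letters searched on both strands were the cyclic AMP response element TGACGTCA, the AP-1 site TGANTCA, the E-box CACGTG, the ERR element TCAAGGTCA with its core AAGGTCA, and the CArG box of SRF by name. JUND held TGACGTCA, as did 1.85% of all 35116 promoters in the table and 2.71% of those of genes tested here. FOSL2 held an AP-1 site just after its start, and 7.71% and 5.52% held such a site anywhere in the window. None of the 8 held CACGTG (7.26% of all promoters and 8.93% of those of tested genes), AAGGTCA (3.92% and 2.88%), TCAAGGTCA (0.353% and 0.208%) or a CArG box (1.29% and 1.17%). That says only that these letters are not in this window. After the sequences had been seen, the shorter core TGACG, which is contained in TGACGTCA, and the form TGACNTCA were added. TGACG lay in the window of all 6 AP-1 promoters of the table (FOS, FOSB, FOSL2, JUN, JUNB and JUND) and in neither MYCN nor MYCL. In the same window it lay in 24.6% of all promoters and 30.6% of those of genes tested here. In the 6 AP-1 promoters every such site was upstream of the start. The core was picked from these same sequences, so its count among them is a description and not a test. It stood before genes that rose (FOS, FOSL2 and JUNB) and genes that fell (FOSB, JUN and JUND), and its part in either was not tested.

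The stretches below run 5′ to 3′ on the strand of each gene, with TGACG (or its reverse complement CGTCA) and TGACNTCA in capitals, to show how the JUN paralogs, which moved apart, and the FOS genes compare around that core. JUNB and JUND are given from 220 to 31 bases before the start (chr19:12791266-12791455, plus strand, and chr19:18281653-18281842, minus strand), where GENCODE 29 annotates no exon, and the others as 30 bases around a site.
JUNB: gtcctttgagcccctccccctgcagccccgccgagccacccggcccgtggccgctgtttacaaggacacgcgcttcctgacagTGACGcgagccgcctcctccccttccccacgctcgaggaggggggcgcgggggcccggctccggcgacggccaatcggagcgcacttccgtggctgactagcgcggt
JUND: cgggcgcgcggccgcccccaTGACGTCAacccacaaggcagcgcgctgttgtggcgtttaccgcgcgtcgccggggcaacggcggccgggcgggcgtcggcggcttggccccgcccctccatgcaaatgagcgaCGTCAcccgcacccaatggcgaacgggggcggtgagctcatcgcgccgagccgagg
JUN (site 123 bases before the start): gagtctccatggTGACGggcgggcccgccc
JUN (site 67 bases before the start): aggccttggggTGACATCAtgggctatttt
FOS (site 64 bases before the start): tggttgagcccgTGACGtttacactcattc
FOSB (site 60 bases before the start): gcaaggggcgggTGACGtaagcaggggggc
FOSL2 (site 66 bases before the start): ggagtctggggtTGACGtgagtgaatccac

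In FOS, FOSB and FOSL2 the core lies 60 to 66 bases before the RefSeq start, followed by T and then by different letters. In JUN the site at about that distance reads TGACATCA, known as an AP-1 site through which JUN acts on its own gene, and its TGACG lies farther out. GENCODE 29 places the starts of JUN, FOS and FOSL2 upstream of the RefSeq starts, so their printed windows fall wholly or partly in exons of that annotation.

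The FOS family rose and fell in equal numbers, and with TMM scaling its summed level was nearly the same in both groups. FOS and FOSL2 rose, FOSL1 fell, and FOSB fell from an already low level. FOS (chromosome 14, 75278774 to 75282230, plus strand), the founding immediate early gene, stood at 3.67, 3.41 and 3.48 CPM in GFP and at 5.76, 5.28 and 5.88 CPM in PGC1A. No PGC1A library reached down to the GFP range, and the log2 fold change was 0.68 (SE 0.11, adjusted p = 9.22e-08). A change of this size did not pass the test against 1.5-fold (glmTreat adjusted p = 0.127).

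FOSB (chromosome 19, 45467995 to 45475179, plus strand) encodes the member whose stable short form accumulates in neurons after repeated stimulation. Its counts were 23, 30 and 31 in GFP and 3, 3 and 8 in PGC1A. The log2 fold change was −2.26 (SE 0.36, adjusted p = 1.68e-07), and without PGC1A replicate 3, the library with 8 counts, it was −2.88. The GFP and PGC1A counts do not overlap, the size of the change rests on 14 counts in PGC1A, and the gene-level count does not separate the short form from the long form.

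FOSL1 and FOSL2 encode FRA1 and FRA2, which lack the strong activation domains of FOS and FOSB. FOSL1 (chromosome 11, 65892049 to 65900573, minus strand) stood at 24.9, 24.6 and 22.5 CPM in GFP and at 16.8, 16.3 and 15.9 CPM in PGC1A. The PGC1A values are all below the GFP values. The log2 fold change of FOSL1 was −0.55 (SE 0.06, adjusted p = 1.56e-12), which did not pass against 1.5-fold (glmTreat adjusted p = 0.718). FOSL2 (chromosome 2, 28392448 to 28417312, plus strand) stood at 77.8, 75.4 and 77.0 CPM in GFP and at 99.0, 100.4 and 101.4 CPM in PGC1A. Here the PGC1A values are all above the GFP values. The log2 fold change of FOSL2, 0.39 (SE 0.03, adjusted p = 2.95e-16), was the smallest change of the 10 genes. It was 0.06 and no longer passed when libraries were scaled to total counts (adjusted p = 0.0852), and it did not pass against 1.5-fold (glmTreat adjusted p = 1).

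Between these paralogs the balance turned. Per exon base FOSL1 held 51.5% ± 1.49 of the FOS family level in GFP and FOSL2 43.4% ± 1.38, against 35.4% ± 0.950 and 57.3% ± 0.829 in PGC1A (SD, n = 3). FOS itself made up 4.40% ± 0.139 and then 7.12% ± 0.378, and FOSB less than 1% in every library. The ratio of FOSL2 to FOSL1 was 0.822, 0.807 and 0.903 in GFP and 1.55, 1.62 and 1.68 in PGC1A. The family sum was 24.7 ± 0.733 CPM per kilobase in GFP and 24.4 ± 0.0907 in PGC1A, a ratio of 0.989 that became 0.788 with total counts. Which of FOSL1 and FOSL2 leads in GFP rests on dividing by length: by counts alone FOSL2 leads in both groups, with 73.0% and 81.9%.

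All 3 MYC genes fell by at least 2-fold, where 42.1% of all genes tested were lower and 16.8% lower by that much. Of these, MYCN and MYCL were tested through their GFP libraries alone. MYC (chromosome 8, 127735434 to 127741434, plus strand), the general family member, stood at 14.1, 14.7 and 14.2 CPM in GFP and at 6.73, 6.72 and 7.25 CPM in PGC1A. The PGC1A libraries lie well below the GFP range, and the log2 fold change was −1.06 (SE 0.07, adjusted p = 3.99e-18).

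MYCN (chromosome 2, 15940564 to 15947007, plus strand), the neural member, was already low in GFP with 43, 34 and 48 counts, and had 2, 6 and 6 counts in PGC1A. The log2 fold change was −2.83 (SE 0.33, adjusted p = 1.02e-10). Its antisense gene MYCNOS, which overlaps 3.8% of its exon bases, had 4, 1 and 3 counts in GFP and 0 in each PGC1A library. MYCL-AS1, which overlaps 4.5% of the exon bases of MYCL, had 2, 0 and 2 counts in GFP and 1, 0 and 1 in PGC1A. Both antisense genes were too low to test. MYCL (chromosome 1, 39895426 to 39902256, minus strand), first found in small cell lung cancer, had 42, 44 and 45 counts in GFP and 6, 4 and 3 in PGC1A. Its log2 fold change was −3.0 (SE 0.32, adjusted p = 5.96e-12), the largest estimate of the 10 genes in size. Its range under the alternatives, −3.33 to −2.81, overlaps that of MYCN, −3.15 to −2.45, so the order of these genes is not settled. Both passed the filter on low counts through their GFP libraries alone. MYCN and MYCL thus went from about 1.3 CPM to less than 0.24 CPM in every PGC1A library.

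Per exon base MYC held 86.1% ± 1.99 of the family level in GFP and 95.8% ± 0.948 in PGC1A (SD, n = 3). MYCN went from 9.02% ± 1.75 to 2.84% ± 1.39 and MYCL from 4.85% ± 0.384 to 1.37% ± 0.505. The summed family level went from 5.55 ± 0.0536 to 2.40 ± 0.113 CPM per kilobase, 0.433 of the GFP level, or 0.345 with total counts. MYC was therefore the leading member in all 6 libraries.

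**Figure D3:**
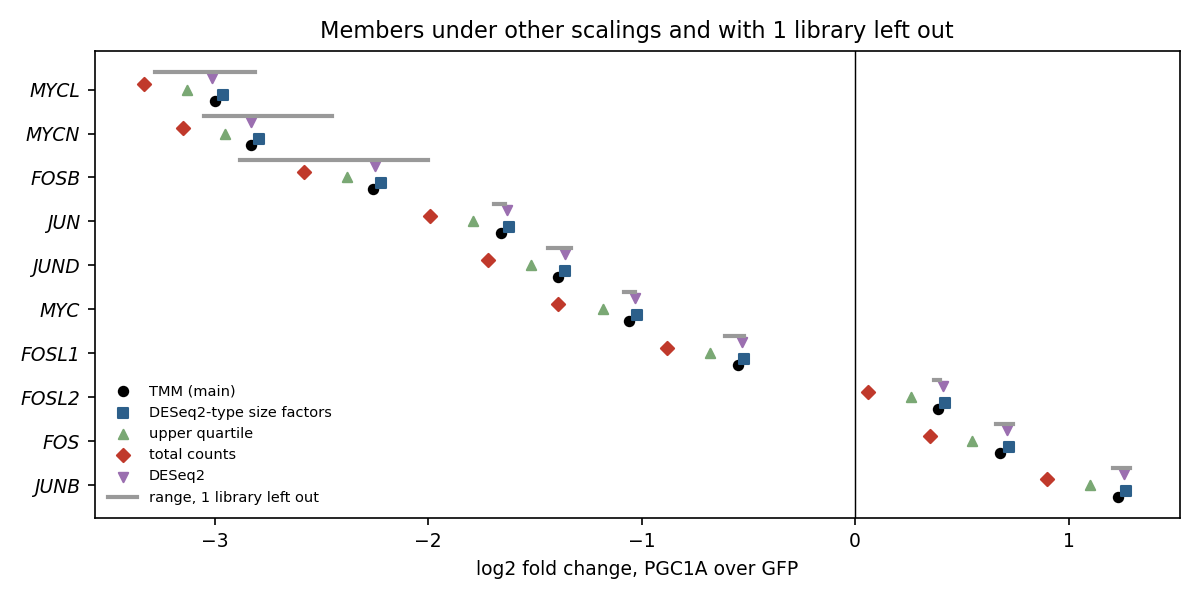
Log2 fold change of each gene (PGC1A over GFP) with 4 ways of scaling the libraries in edgeR and with DESeq2, and the range when 1 library is left out (grey bars). The 3 higher and 7 lower genes keep their side of 0, and FOSL2 comes nearest to it, at 0.06 with total counts.

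The genes around the family follow in lists put together from general knowledge of these pathways, given by counts and median beside those of all genes. Of 12 tested bZIP partners that can join AP-1 dimers, 7 were lower and 2 higher (58.3% and 16.7%, against 42.1% and 40.9% of all genes), with a median log2 fold change of −0.53. CREB5, a CRE-binding partner of JUN, fell from 57.1 ± 3.71 to 16.8 ± 0.993 CPM (SD, n = 3; −1.76 on the log2 scale, adjusted p = 6.55e-31). BATF3 was tested through its GFP libraries alone. Of the 3 small MAF genes, 2 fell and 1 rose. MAFG fell by 1.67 on the log2 scale (118 to 37.0 CPM, adjusted p = 2.14e-39), while MAFK rose by 1.12 (12.7 to 27.6 CPM, adjusted p = 4.86e-24), with 18.1% of its exon bases under an antisense gene. MAFF fell by 1.15 (7.94 to 3.58 CPM, adjusted p = 4.43e-15). BATF had no counts in any library, and BATF2 and MAFA were too low to test.

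Upstream of AP-1, 14 of 32 genes of the MAP kinase, SRF and CREB routes were higher and 15 lower (43.8% and 46.9%), near the 40.9% and 42.1% of all genes. Their median was 0.01, and it moved to −0.12 with upper-quartile factors and −0.32 with total counts. The JUN N-terminal kinase genes, whose products phosphorylate JUN, rose in 2 of 3 cases. MAPK9 rose by 1.29 on the log2 scale (45.3 to 111 CPM, adjusted p = 2.77e-36) and MAPK8 by 0.93 (72.5 to 138 CPM, adjusted p = 2.51e-32), while MAPK10, the neuronal form, fell by 1.65 (13.1 to 4.19 CPM, adjusted p = 3.85e-23). RPS6KA1, the ERK-activated kinase RSK1, rose by 2.58 (17.6 to 105 CPM, adjusted p = 5.3e-44). ELK3, an SRF partner, fell by 1.36 (105 to 41.1 CPM, adjusted p = 1.49e-36).

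Other immediate early genes were mostly lower. Of 20 tested, 17 were lower and 1 higher (set against 42.1% and 40.9% of all genes), with a median of −0.99. Of the 17 lower genes, 3 (KLF2, NPAS4 and EGR2) passed the filter on low counts through their GFP libraries alone. With GFP levels as low as their PGC1A levels these 3 would not have been tested. KLF2, a Krüppel-like factor, went from 2.10, 1.90 and 2.19 CPM to 0.112, 0.0760 and 0.0784 CPM (−4.47 on the log2 scale, SE 0.33, adjusted p = 1.89e-17). KLF6 fell by 1.92 (185 to 48.8 CPM, adjusted p = 2.48e-44). NR4A3, an orphan nuclear receptor, was the 1 gene of the list that rose (0.63 on the log2 scale, 3.84 to 5.94 CPM, adjusted p = 4.12e-07), which did not pass against 1.5-fold (glmTreat adjusted p = 0.257). Among the FOS and JUN genes, FOS, FOSL2 and JUNB rose, as did 1 of these 20 genes. JUN, JUND, FOSL1 and FOSB fell, as did 17 of the 20. FOSB and 3 of those 17 were tested through GFP alone, so this is a description.

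Genes known as AP-1 targets in other cells were lower in 15 of 19 cases and higher in 2 (78.9% and 10.5%, against 42.1% and 40.9% of all genes), with a median of −1.21. CCND1, cyclin D1, fell by 1.85 on the log2 scale (663 to 185 CPM, adjusted p = 6.04e-48). GJA1, the gap junction protein connexin 43, fell by 1.78 (33.5 to 9.77 CPM, adjusted p = 5.78e-31). EZR, which links the membrane to actin, rose by 1.75 (119 to 401 CPM, adjusted p = 1.63e-46). The inflammatory target gene IL6 had no counts in any library. VIM and CD44 stand both in this list and among the mesenchymal-type markers given above, which were lower as well.

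The MAX network, in which MAX pairs with MYC or with repressors of the MXD and MNT type, was lower in 7 of 10 genes and higher in 3 (42.1% and 40.9% over all genes), with a median of −0.64. The steepest falls were in antagonists of MYC: MXD4 fell by 2.84 on the log2 scale (69.1 to 9.65 CPM, adjusted p = 1.46e-42) and MXD1 fell by 2.59 (22.3 to 3.70 CPM, adjusted p = 2.86e-32). MAX itself was at −0.42 (55.1 to 41.0 CPM, adjusted p = 8.95e-14; glmTreat adjusted p = 1). Per exon base the ratio of MYC to MAX was 0.368, 0.396 and 0.391 in GFP and 0.233, 0.256 and 0.257 in PGC1A. This ratio was thus lower in every PGC1A library than in every GFP library. MLXIPL, the glucose-responsive factor ChREBP, rose by 2.04 from 0.478 to 1.98 CPM (adjusted p = 4.22e-11), and MLX, its partner, by 0.71 (adjusted p = 7.38e-25), with 18.1% of its exon bases under an antisense gene.

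Among 25 regulators of MYC protein and MYC cofactors, 11 were higher and 8 lower (44% and 32%, against 40.9% and 42.1% of all genes). Their median of 0.01 became −0.12 with upper-quartile factors and −0.32 with total counts. PIM1, a kinase that stabilises MYC, rose by 2.68 on the log2 scale (8.59 to 55.1 CPM, adjusted p = 5.35e-41), and AURKA, which protects MYCN protein from degradation, by 1.89 (38.6 to 143 CPM, adjusted p = 5.81e-43). LIN28B, a let-7 blocker that raises MYCN in neuroblastoma, fell by 1.38 (27.5 to 10.6 CPM, adjusted p = 6.35e-26), and SKP2, a ubiquitin ligase subunit, fell by 0.69 (61.1 to 37.98 CPM, adjusted p = 3.44e-22).

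Of 38 tested genes known to be activated by MYC, 21 were higher and 16 lower (55.3% and 42.1%, against 40.9% and 42.1% of all genes). Their median of 0.12 became −0.01 with upper-quartile factors and −0.21 with total counts, where 12 were higher and 24 lower. E2F2, a cell cycle factor, rose by 2.03 on the log2 scale (11.2 to 45.8 CPM, adjusted p = 1.67e-34), and TFRC, the transferrin receptor, by 1.71 (329 to 1077 CPM, adjusted p = 4.21e-47). The other genes of the list higher by 2-fold encode mitochondrial proteins: HSPD1 (1.56), PHB1 (1.39), PHB2 (1.33) and HSPE1 (1.26). PHB1 and HSPE1 share 25.1% and 23.9% of their exon bases with other genes. Genes of ribosome production went both ways, such as POLR1A (0.99) and RRS1 (0.73) against DKC1 (−0.52) and NOP56 (−0.44). The part of MYC in these changes was not tested. EIF4A1, a translation helicase, fell by 0.92 (14.6 to 7.73 CPM, adjusted p = 7.26e-16), with 48.6% of its exon bases shared with other genes, and CAD, of pyrimidine synthesis, fell by 0.85 (129.7 to 71.8 CPM, adjusted p = 4.96e-29). Of 20 genes known to be repressed by MYC, 16 were lower and 4 higher (42.1% and 40.9% over all genes), and their median was −0.82. CDKN1C, a cell cycle inhibitor, fell by 2.82 (7.32 to 1.03 CPM, adjusted p = 1.72e-24) and DKK1, a secreted Wnt inhibitor, fell by 2.6 (331 to 54.6 CPM, adjusted p = 1.56e-51). The listed genes of the N-myc downstream-regulated family, which leave out NDRG3, did not move one way. NDRG1 fell by 0.91 (17.2 to 9.13 CPM, adjusted p = 1.49e-16), and NDRG2 and NDRG4 rose by 3.96 (14.9 to 232 CPM, adjusted p = 5.96e-55) and 2.68 (76.5 to 491 CPM, adjusted p = 3.67e-53).

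**Figure D4:**
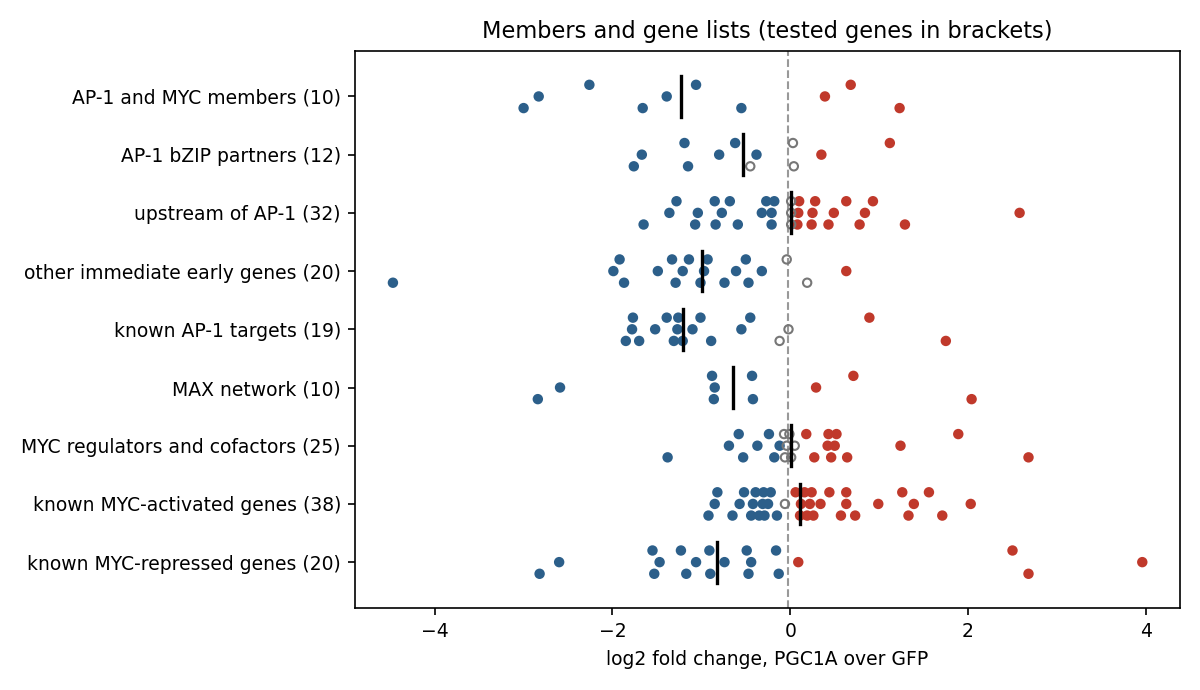
Log2 fold change (PGC1A over GFP) of the 10 genes and of the tested genes of each list; filled points passed an adjusted p of 0.05 (red higher, blue lower), open points did not, black bars are list medians and the dashed line is the median of all genes, −0.03. The known AP-1 targets have a median of −1.21 and the known MYC-activated genes one of 0.12.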

How the data were processed

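The deposited file gives unnormalised counts of reads for each gene in 6 poly(A) libraries, followed by 5 summary lines that held 28.8% to 31.0% of its reads and were kept out of all totals and tests. Per the submitters' processing notes, the tools were HTSeq 0.10.0, STAR 2.6.0c, DESeq2 1.20.0 and DRAGEN, on GRCh38, with no order or settings. Annotation release and strand setting: not given in the sources used here. Gene identifiers were matched without version to GENCODE 29 (57447 of 58096), which gave symbols, coordinates and exon lengths.

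The test was edgeR 4.0.16 in R 4.3.3: TMM factors, filterByExpr defaults (minimum count 10, total 15), robust glmQLFit and a two-sided glmQLFTest of group with no covariate. P-values were adjusted by Benjamini-Hochberg across the 19343 tested genes (threshold 0.05). Standard errors were taken from the fold change and its F statistic. CPM values use the TMM factors. The depth of 24988743 to 31762496 counts per library limits genes of a few counts most.

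Replicate pairs differed by more than counting noise (chi-square per degree of freedom 1.25 to 2.81), so none was a copy. The genes and lists were chosen with earlier results of these data known, and lists are described by counts and medians without a set test. Within a list, named genes are the 2 largest rises and 2 largest falls past the threshold with groups that do not overlap and a mean of at least 1 CPM. Named after their values were seen were MAX, MAFF, MAPK8, NDRG1, VIM, CD44, genes tested through GFP alone and genes without counts. The same holds for HSPD1, HSPE1, PHB1, PHB2, POLR1A, RRS1, DKC1 and NOP56. Some genes that the rule names are not reported here. Of 40 MYC-activated genes listed, 39 were found. Alternatives were 3 other scalings, factors computed without PPARGC1A and mitochondrial genes, 2 other filters, DESeq2 1.42.0, limma-voom (limma 3.58.1), glmTreat, the replicate block and each library left out.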

Additional observations from a re-analysis of the deposited data

How the results depend on the processing

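The direction of the AP-1 and MYC genes held under every alternative in which they were tested; with the filter of 1 CPM in 3 libraries FOSB was no longer tested, which left 6 lower. FOS ranged from 0.35 to 0.74 on the log2 scale, FOSL2 from 0.06 to 0.42, JUNB from 0.90 to 1.29, JUN from −1.99 to −1.62, JUND from −1.72 to −1.33, FOSL1 from −0.88 to −0.52, FOSB from −2.88 to −2.0, MYC from −1.39 to −1.02, MYCN from −3.15 to −2.45 and MYCL from −3.33 to −2.81. Calls were lost for FOSL2 with total counts, and for FOS, FOSL1 and FOSL2 against 1.5-fold with glmTreat, where 1 of the 10 genes was higher. Over all genes, 16057 passed in the main test and 9241 with glmTreat, and 15902 to 16072 when 1 library was left out. With the replicate block 16071 genes passed; correlations between libraries sharing a number were −0.011 to 0.011, so the numbers were not taken to pair the libraries, and the block changed no call of the 10 genes.

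With upper-quartile factors, 14 regulators of MYC were lower in place of 8. With total counts, 1 bZIP partner, 8 upstream genes, 1 AP-1 target and 12 MYC-activated genes were higher, and 23 upstream genes and 15 regulators of MYC lower. One AP-1 target was higher (1 in place of 2) with the 1 CPM filter and with DESeq2. With glmTreat, which sets a harder threshold by construction, 1 bZIP partner, 5 upstream genes, 0 other immediate early genes, 1 AP-1 target, 3 regulators of MYC and 9 MYC-activated genes were higher, and 9 upstream genes, 2 regulators of MYC and 4 MYC-activated genes lower.

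Shares within a family depend on gene length. Without dividing by length, FOS held 3.35% in GFP and 4.61% in PGC1A, FOSL1 22.8% and 13.3%, FOSL2 73.0% and 81.9%, JUN 65.2% and 35.1%, JUNB 12.7% and 50.7%, JUND 22.0% and 14.3%, and MYCL 8.01% and 2.29%, while FOSB held 0.823% in GFP. Divided by the longest coding transcript, a choice made after seeing the data, FOS held 5.89% and 9.54%, FOSL2 41.3% and 54.6%, and in GFP FOSB 0.828%, MYCN 7.17% and MYCL 5.99%. JUNB led the JUN family in PGC1A under each. Depth limits FOSB, MYCN and MYCL most, with 13 or 14 counts each over the PGC1A libraries.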
